A study of Ovis aries with 2 samples.

Results

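FZD1, FZD6, FZD10, LRP6, CTNNB1, LEF1 and TCF7L1, 7 of the 18161 genes in the deposited table, were examined in all 14037 cells of Hu sheep lambskin. They were taken by name, as receptors and nuclear effectors of the WNT pathway, and all 7 are present in the table. The skin came from lambs of 3 days, and the straight wool library holds the pooled skin of 3 lambs and the curly wool library that of 3 others, whose wool the labels call waved. No agent or genetic change is named for either group, and single lambs within a pool cannot be told apart. Isolated follicles and whole skin had been mixed before loading, which also bears on how many cells of each type were captured. Each wool type is thus 1 library without replicates, so differences between them are described and not tested, and every 95% interval covers counting error only.

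WNT ligands bind a frizzled receptor (FZD) together with a co-receptor, LRP5 or LRP6, at the cell surface. This stops the breakdown of β-catenin, the product of CTNNB1, which then enters the nucleus and joins a DNA-binding factor of the TCF family (LEF1, TCF7, TCF7L1 or TCF7L2). LEF1 mostly activates WNT targets with β-catenin, whereas TCF7L1 often represses them. In hair follicles the pathway is known for its part in the start of growth, in the signals between the dermal papilla and the epithelium, and in the formation of the hair shaft. β-catenin is also a structural protein of adherens junctions, where it binds cadherins, and its transcript alone does not show which role it serves.

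UMI counts (1 UMI marks 1 captured RNA molecule) were recovered from the deposited natural log values, and a level is given as counts per 1000000 UMIs (CPM) of all cells of a class in a library. Such levels compare a gene between classes and do not rank one gene against another. The straight library had 6452 cells with a median of 7373.5 UMIs and the curly library 7585 cells with a median of 7495, and 70 cell barcodes occurred in both. Cells fell into 21 clusters, formed without the 7 genes and without the other genes of the WNT list, so the levels below were not used to form them. Marker genes named 17 of them, and 14 classes had enough cells and UMIs in both libraries to be ordered by level. The highest and the lowest class of a gene are taken among these 14, and unnamed clusters are outside the order. The names used are DPC-like (dermal papilla), matrix-like (the dividing cells at the follicle base), HS-like (hair shaft), IRS-like (inner root sheath) and HFSC-like (follicle stem cell). Basal and suprabasal IFE-like cells are those of the interfollicular epidermis. Cells rich in KRT6A and cells rich in KRT79 are called by those genes, because the companion layer markers were high in both. The others are cycling-like, luminal sweat gland-like, contractile-like, endothelial-like and immune-like. Unnamed clusters held 11.9% of straight and 16.1% of curly cells, and the dermal fibroblast-like cells were too shallow to be ordered, at a median of 899 UMIs in straight and 888 in curly cells. The libraries stand apart before integration: without it, 1 DPC-like cluster held 1240 straight and 59 curly cells and another 6 straight and 589 curly cells. A cluster led by LCN2 and LGR5 then held 27 straight and 840 curly cells.

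At least 1 UMI of the 7 genes was found in 11204 cells, 79.8% of all. CTNNB1 was found in 69.7% of straight and 67.8% of curly cells, and each of the others in fewer. FZD1 was found in 14.3% of straight and 14.9% of curly cells, FZD6 in 17.4% and 21.2%, and FZD10 in 10.1% and 10.3%. LRP6 had a UMI in 16.8% and 16.7%, LEF1 in 13.5% and 16.2%, and TCF7L1 in 10.0% and 9.48%.

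LEF1 was highest in HS-like cells, FZD10 in IRS-like cells, FZD6 in KRT6A-rich cells, and LRP6 and TCF7L1 in HFSC-like cells, in both libraries. CTNNB1 was detected in every class. The highest class was the same in both libraries for 6 of the 7 genes, FZD1 being the exception, and for 50% of the 9888 genes with at least 500 UMIs. The 6 were not equally well separated among the classes ordered. The highest class stood clear of the next by its interval in both libraries for FZD6, LRP6 and LEF1. It did so in the curly library alone for FZD10 and TCF7L1, and in neither for CTNNB1. Unnamed cluster 4, outside the order and with medians of 694.5 and 763 UMIs, overlapped the highest class of FZD6 and LRP6 in both libraries. Its FZD6 was 53.0 CPM (38.0 to 71.9) in straight and 58.4 CPM (44.6 to 75.2) in curly skin. Its LRP6 was 49.1 CPM (34.7 to 67.4) and 60.4 CPM (46.3 to 77.4). Under a stricter filter on genes per cell, with the limit given in the study's supplement, the count fell to 3 of the 7. FZD10, CTNNB1 and TCF7L1 then had different highest classes in the libraries. Without integration the count was 4 of the 7. The share of all genes was calculated for the main setting only. Under these alternatives the 7 are therefore not shown to keep their highest class more often than genes at large.

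**Figure D1:**
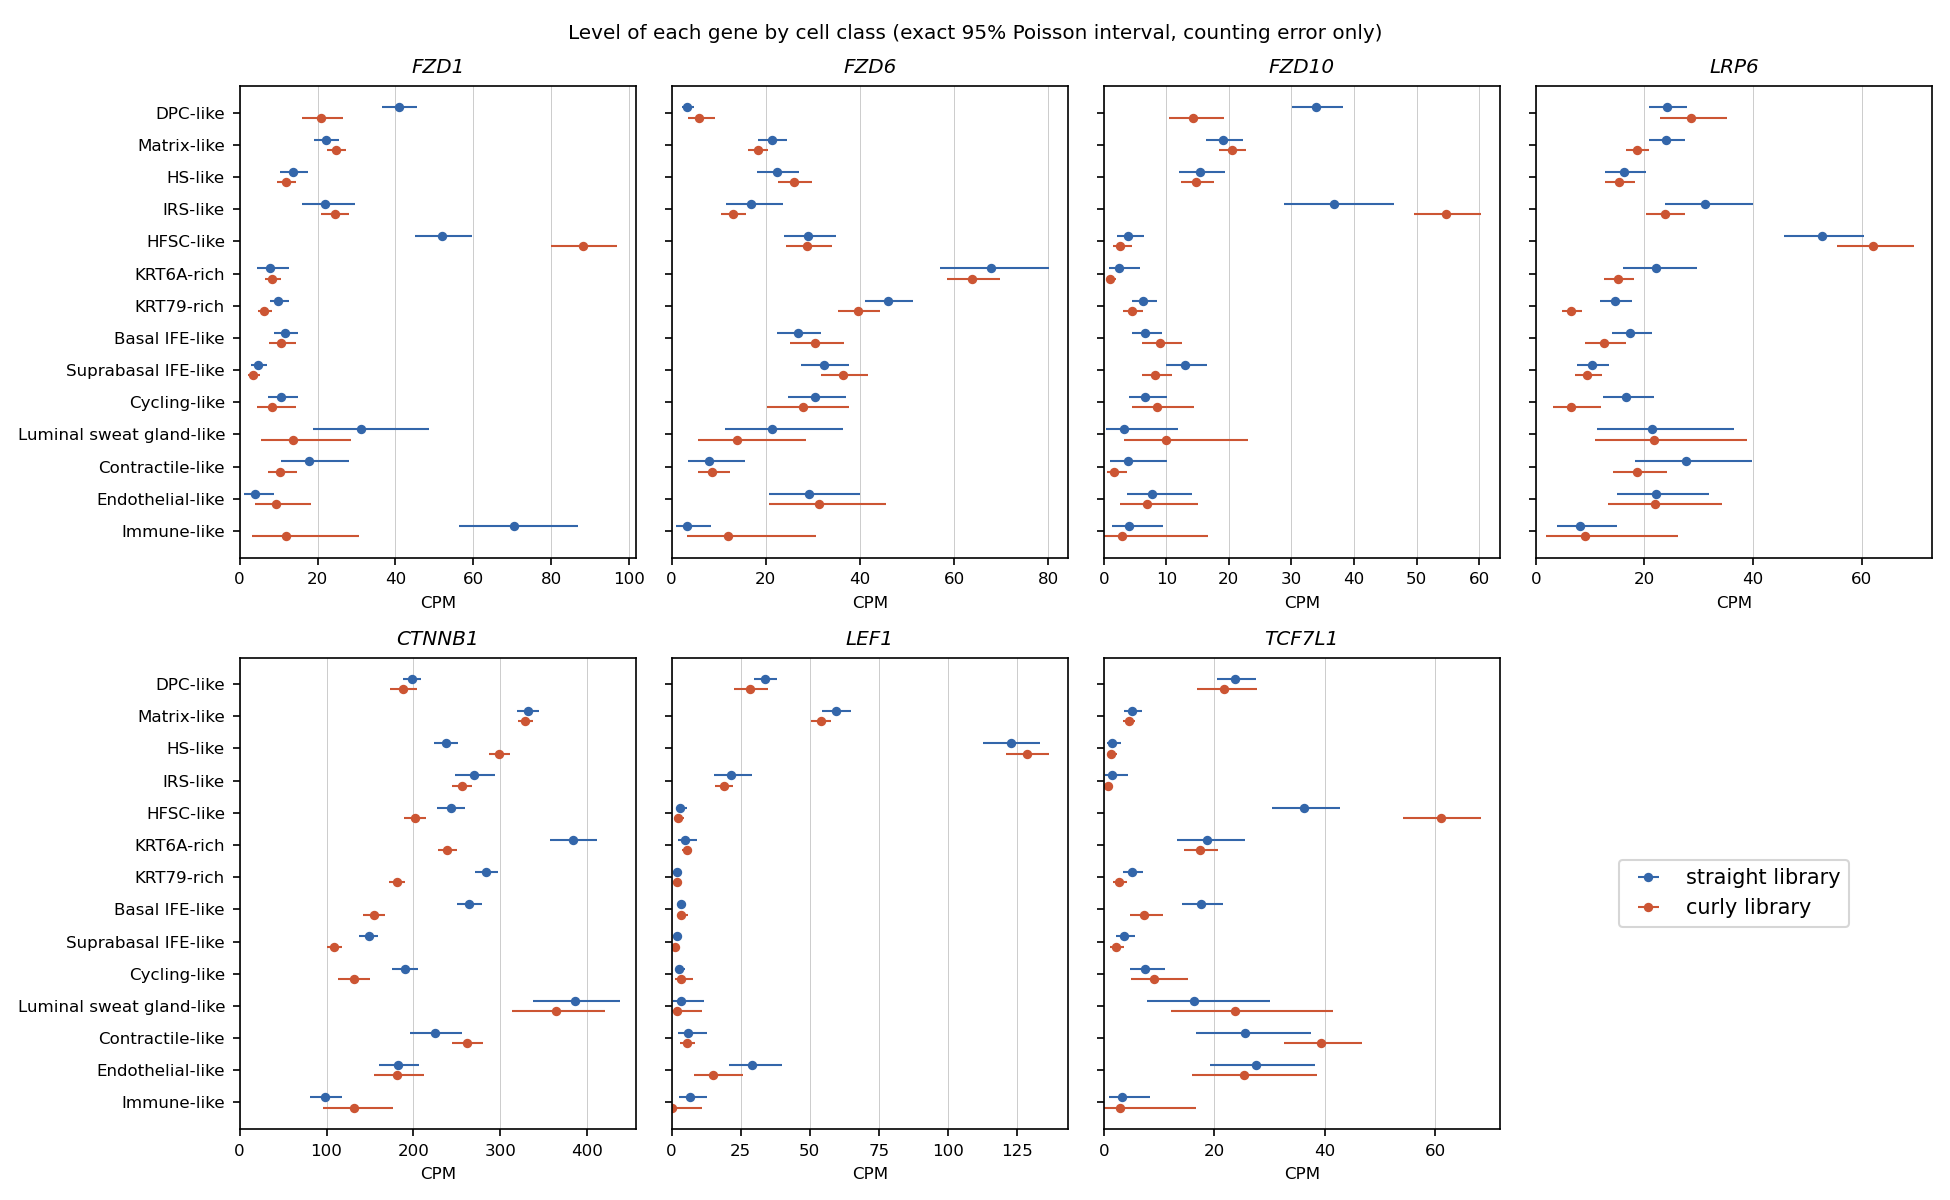
CPM of each gene (x axis, linear) in 14 cell classes (y axis) of the straight (blue) and the curly (orange) library, with exact 95% Poisson intervals as bars. LEF1 stands out in HS-like cells (123 and 128 CPM), FZD10 in IRS-like cells, FZD6 in KRT6A-rich cells and TCF7L1 in HFSC-like cells, while CTNNB1 is found in every class.

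FZD1, a receptor, was highest in HFSC-like cells of the curly library, at 88.2 CPM (80.1 to 96.9), and its next class there, matrix-like cells, had 24.9 CPM. In straight HFSC-like cells it stood at 52.0 CPM (45.1 to 59.7). This was 2.35 times the level of straight matrix-like cells (1.91 to 2.88) and 4.44 times that of straight basal IFE-like cells (3.31 to 6.03). The corresponding folds in the curly library were 3.55 (3.09 to 4.07) and 8.33 (5.99 to 11.9). Suprabasal IFE-like cells were at 4.65 CPM (straight) and 3.37 CPM (curly), so the epidermal surface layers were near the bottom of the order in both libraries.

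In the straight library the first place among the classes ordered went to immune-like cells, with 70.4 CPM (56.3 to 86.9) from 86 UMIs in 301 cells. This interval overlapped that of straight HFSC-like cells (45.1 to 59.7), so the first place is not settled by counting. Straight dermal fibroblast-like cells, too shallow to be ordered, had 99.8 CPM (43.1 to 197) from 8 UMIs. The 93 curly immune-like cells held 4 UMIs, or 11.97 CPM (3.26 to 30.7). Splitting these cells by KIT, the receptor that marks mast cells among skin leukocytes, was done after the values were seen. Straight cells with a KIT UMI had 60.8 CPM (44.5 to 81.0) and those without 86.0 CPM (61.5 to 117). Curly cells with a KIT UMI had 9.86 CPM (0.25 to 54.9) from 1 UMI in 36 cells, and those without 12.9 CPM (2.66 to 37.7) from 3 UMIs in 57 cells. The intervals of cells with a KIT UMI overlapped between the libraries and those of cells without one did not. FZD5, another frizzled, also had its highest level in this class in both libraries, at 67.1 and 26.9 CPM.

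FZD6, a receptor best known for the planar orientation of hairs, was highest in KRT6A-rich cells, with 67.9 CPM (57.0 to 80.2) in the straight and 63.9 CPM (58.4 to 69.8) in the curly library. KRT79-rich cells came next, with 45.9 and 39.6 CPM, followed by suprabasal IFE-like cells with 32.4 and 36.4 CPM. HS-like cells were lower, at 22.3 and 26.0 CPM, and so were matrix-like cells, at 21.2 and 18.2 CPM, and IRS-like cells, at 16.9 and 13 CPM. The intervals of KRT6A-rich and KRT79-rich cells did not overlap in either library. DPC-like cells had 3.30 and 5.85 CPM, and KRT6A-rich cells exceeded them 20.6 times in the straight (13.5 to 32.6) and 10.9 times in the curly library (6.83 to 18.6). Against IRS-like cells the excess was 4.02 times (2.74 to 6.08) and 4.92 times (3.95 to 6.17). FZD6 was thus mainly an epithelial transcript, apart from endothelial-like cells at 29.1 and 31.2 CPM.

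FZD10, a receptor, was highest in IRS-like cells, at 36.8 CPM (28.8 to 46.3) in straight and 54.8 CPM (49.6 to 60.3) in curly skin. In the straight library the interval overlapped that of DPC-like cells at 34.0 CPM (30.0 to 38.3), so the first place there is not settled by counting. Unnamed cluster 17, outside the order, had 39.1 CPM (22.8 to 62.7) from 17 UMIs in 39 straight cells and 14.7 CPM in curly cells. Curly DPC-like cells had only 14.3 CPM (10.4 to 19.2), and matrix-like cells followed with 19.1 and 20.5 CPM. HS-like cells, the other product of the matrix, had 15.4 and 14.8 CPM, so IRS-like cells exceeded them 2.39 times in straight (1.70 to 3.37) and 3.70 times in curly skin (3.01 to 4.57). KRT6A-rich cells were lowest with 2.46 CPM from 5 UMIs and 1.03 CPM from 8 UMIs. HFSC-like cells were also low, with 3.88 and 2.66 CPM. FZD6 had its lowest values among the epithelial follicle classes in IRS-like cells, although its straight interval there (11.6 to 23.7) overlapped those of matrix-like and HS-like cells.

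LRP6, the co-receptor, was highest in HFSC-like cells with 52.8 CPM (45.8 to 60.5) in straight and 62.2 CPM (55.4 to 69.6) in curly skin. None of the other 13 classes ordered overlapped these intervals. Dermal fibroblast-like cells, too shallow to be ordered, had 187 CPM (105 to 309) from 15 UMIs in 46 straight cells, which lies above HFSC-like cells, and 21.1 CPM (2.56 to 76.4) from 2 UMIs in 54 curly cells. The level was 2.195 times that of matrix-like cells in the straight (1.80 to 2.68) and 3.32 times in the curly library (2.83 to 3.90), and 3.04 and 4.98 times that of basal IFE-like cells. Most other classes lay close together, from 10.3 to 31.2 CPM in the straight library without immune-like cells at 8.18 CPM. Of the 13 pairs of neighbours in the order, 12 overlapped in each library. LRP5, its relative, was also highest in straight HFSC-like cells at 26.1 CPM, while in the curly library contractile-like cells came first at 31.3 CPM.

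HFSC-like cells comprised 2 clusters, which differed in FZD1. Cluster 6, led by LGR5, a receptor for the WNT enhancers of the R-spondin family, had 88.0 CPM (74.6 to 103) in straight and 101.3 CPM (90.8 to 113) in curly cells. Cluster 11, led by PPP2R2B, had 22.6 CPM (16.6 to 29.9) in straight and 59.9 CPM (48.4 to 73.4) in curly cells. For LRP6 the clusters were closer, at 61.0 and 63.9 CPM in cluster 6 and 46.1 and 58.6 CPM in cluster 11. TCF7L1 had overlapping intervals in them, at 37.4 and 64.5 CPM in cluster 6 and 35.3 and 53.5 CPM in cluster 11.

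CTNNB1 was detected in every class. Of the classes ordered, luminal sweat gland-like cells were highest, at 385 CPM (338 to 438) in straight and 363 CPM (313 to 420) in curly skin. Unnamed cluster 4 overlapped them, at 364 CPM (323 to 409) in straight and, slightly above them, 370 CPM (334 to 409) in curly skin. Matrix-like cells had 332 CPM (319 to 344) and 329 CPM (320 to 338), and differed by less than their intervals between the libraries. The lowest class of the straight library was immune-like cells at 98.2 CPM (81.4 to 117), and of the curly library suprabasal IFE-like cells at 109 CPM (100.8 to 118). The log2 distance from the highest to the lowest class, with 5 CPM added, was 1.92 in straight and 1.69 in curly skin. The medians of the 9888 genes were 1.58 and 1.77, and 62.4% and 46.5% of these genes had a smaller range, so the spread of CTNNB1 was near the middle.

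LEF1 had the widest range of the 7, 4.18 in straight and 4.74 in curly skin, and 92.7% and 94.7% of the 9888 genes had a smaller one. HS-like cells had 123 CPM (113 to 133) and 128 CPM (121 to 137), matrix-like cells 59.6 CPM (54.5 to 65.0) and 53.9 CPM (50.4 to 57.5). Among the classes ordered, these were followed by DPC-like cells, the only dermal class among the first 3, with 33.8 CPM (29.9 to 38.2) and 28.3 CPM (22.7 to 34.9). Unnamed cluster 4, outside the order and shallow, had 45.2 CPM (31.5 to 62.9) from 35 UMIs in straight skin, which overlapped matrix-like and DPC-like cells. In curly skin it had 94.5 CPM (76.6 to 115) from 97 UMIs, above matrix-like and below HS-like cells. Endothelial-like cells had 29.1 and 15.0 CPM and IRS-like cells 21.5 and 18.8 CPM. The step from HS-like to matrix-like cells was 2.06 times (1.82 to 2.32) in straight and 2.38 times (2.18 to 2.61) in curly skin. Matrix-like cells in turn exceeded HFSC-like cells 19.2 times (10.9 to 37.4) and 21.9 times (12.5 to 42.6). The other 9 classes lay between 2.02 and 6.55 CPM in straight and between 0 and 5.42 CPM in curly skin. In curly immune-like cells 0 UMIs were found in 334075, which allows up to 8.98 CPM by a limit of 3 counts, with the exact interval reaching 11.04 CPM.

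TCF7L1 was highest in HFSC-like cells, with 36.2 CPM (30.5 to 42.7) in straight and 61.0 CPM (54.2 to 68.3) in curly skin, and IRS-like and HS-like cells, of which the latter led in LEF1, came last with at most 1.53 CPM. HFSC-like cells exceeded matrix-like cells 7.02 times (4.97 to 10.1) and 13.5 times (10.4 to 17.6). Contractile-like cells had 25.6 and 39.3 CPM, and within them cluster 15, led by ACTG2, had 33.2 and 45.6 CPM against 13.1 and 16.1 CPM in cluster 16, led by DES. Endothelial-like and DPC-like cells had 27.6 and 23.8 CPM in straight and 25.5 and 21.8 CPM in curly skin. KRT6A-rich cells, at 18.7 and 17.4 CPM, were above matrix-like, HS-like and IRS-like cells by intervals that did not overlap.

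The share of cells with a UMI was also highest in HS-like cells for LEF1. LEF1 was found in 70.4% (64.6 to 75.6) of straight and 78.3% (74.2 to 82.1) of curly HS-like cells, and in 48.6% and 49.9% of matrix-like cells. HFSC-like cells, which are low in LEF1, had 2.18% and 1.52%, and shares of that size are not read as expression. HS-like cells are also deep, with medians of 17228 and 18632 UMIs against 6991 and 6199 in HFSC-like cells. After each cell was thinned to 2000 UMIs, LEF1 remained in 23.4% and 22.7% of HS-like cells and in 0.881% and 0.555% of HFSC-like cells. TCF7L1, found in 21.2% and 30.0% of HFSC-like cells, was left in 7.71% and 11.7% of them after thinning, against 0.391% and 0.463% of HS-like cells. FZD10 was found in 35.5% of straight and 45.9% of curly IRS-like cells before and in 7.48% and 11.5% after thinning. FZD6 was found in 51.0% and 59.0% of KRT6A-rich cells before and 16.9% and 11.8% after.

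In matrix-like cells, 269 of 553 straight and 480 of 961 curly cells had a LEF1 UMI, 37 and 68 had a TCF7L1 UMI, and 20 and 36 had both. LEF1 made up 92.03% (89.4 to 94.1) and 92.2% (90.4 to 93.8) of the UMIs of this pair in matrix-like cells. In HS-like cells its share was 98.8% and 99.0%, in IRS-like cells 93.3% and 95.9%, in DPC-like cells 58.7% (54.0 to 63.2) and 56.5% (48.3 to 64.5), and in HFSC-like cells 7.89% and 3.87%. A UMI of both genes was held by 33 of 1239 straight and 6 of 661 curly DPC-like cells. Over the 14 classes the levels of LEF1 and TCF7L1, as log2 of CPM with 5 added, had Pearson's r of −0.27 in straight and −0.24 in curly skin. The points of each r share a library, so it is a description only.

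Among all 4 TCF family genes LEF1 took 62.6% of the straight and 68.2% of the curly UMIs in matrix-like cells and 91.7% and 93.8% in HS-like cells. TCF7L2 held most of the rest in matrix-like cells, with 26.6% and 22.6%. In HFSC-like cells TCF7L1 and TCF7L2 together took nearly all, TCF7L1 with 41.8% and 56.8% and TCF7L2 with 53.4% and 40.4%. TCF7 was highest in immune-like cells, at 5.73 and 8.98 CPM, the latter from 3 UMIs. These shares compare classes, since UMIs of different genes need not be captured equally well.

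**Figure D2:**
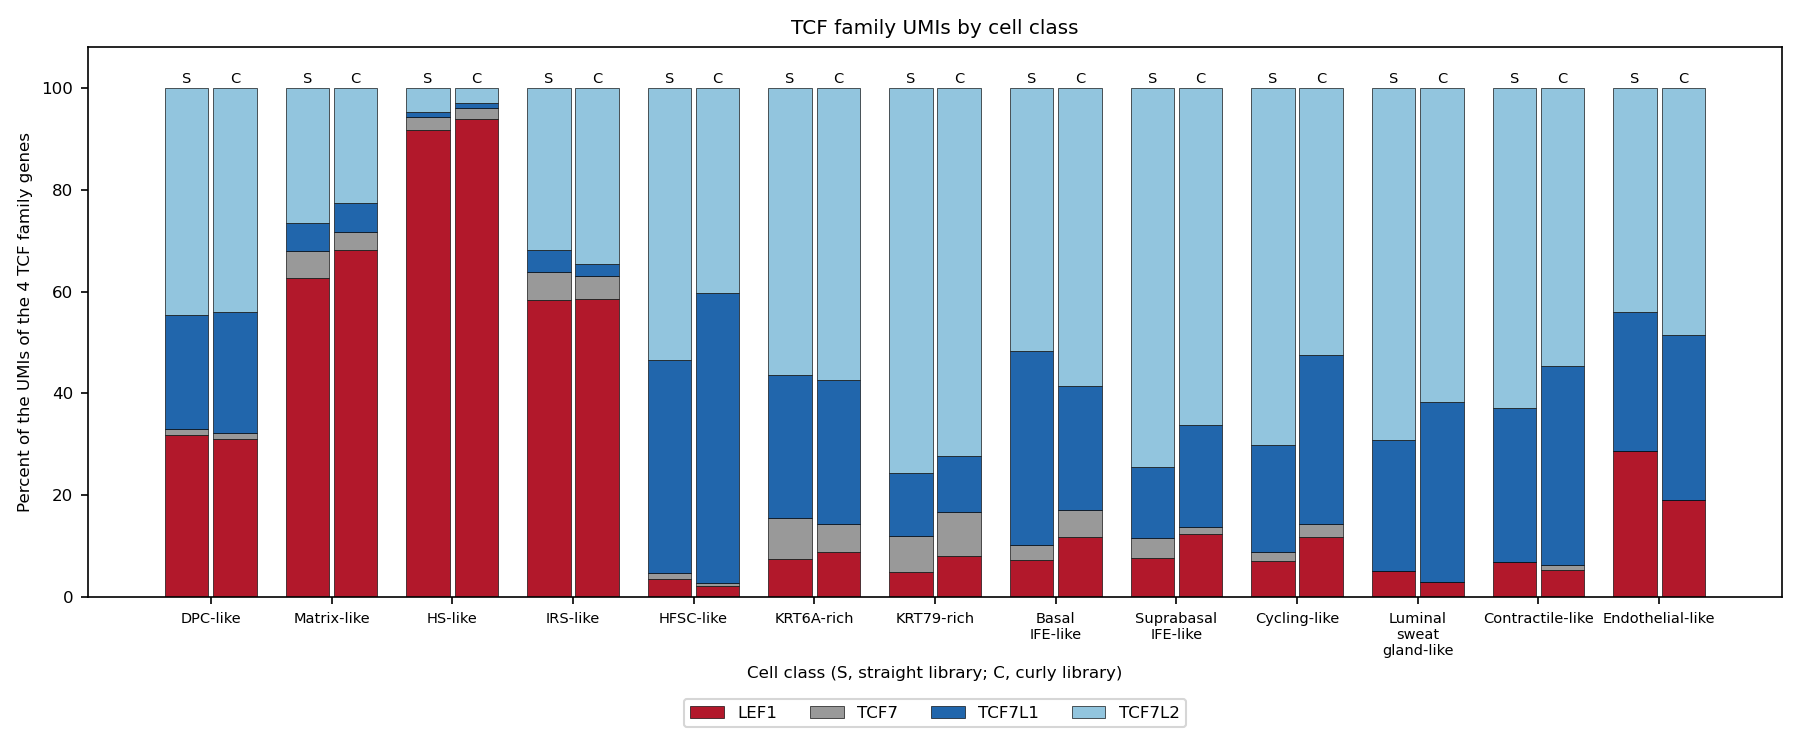
Stacked bars of the percent of the UMIs of LEF1, TCF7, TCF7L1 and TCF7L2 (y axis, 0 to 100) in 13 cell classes (x axis), with the straight (S) beside the curly (C) library. LEF1 takes 91.7% and 93.8% in HS-like cells and 3.58% and 2.29% in HFSC-like cells. Immune-like cells are left out for having 25 and 12 UMIs of these genes.

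The study ordered matrix cells towards hair shaft and IRS, and the 7 genes were followed along such an ordering. Diffusion pseudotime, a distance along the graph of neighbouring cells, was started from a central matrix-like cell. Matrix-like and HS-like cells, and matrix-like and IRS-like cells, were each cut into 5 parts of equal size by this distance, and the first parts share 424 cells. KRT35, a hair shaft keratin, reached 11796 CPM at the straight and 12610 CPM at the curly hair shaft end. KRT71, an IRS keratin, reached 10640 and 13298 CPM at the IRS end. Both keratins are among the markers that named the HS-like and IRS-like classes. HS-like cells were 97.6% of the straight and 88.6% of the curly last part towards the hair shaft. Towards the IRS, IRS-like cells were 95.6% and 90.4%. High keratin levels at the ends were therefore set by the class names and do not test the ordering.

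LEF1 and FZD10 parted along the way in opposite directions. LEF1 was at 79.3, 55.0, 54.4, 83.6 and 131 CPM over the 5 parts towards the straight hair shaft end and at 70.1, 57.0, 47.3, 77.1 and 133 CPM towards the curly one. It was lower in the second and the third part, where TOP2A, a gene of dividing cells, stood at 100.6 to 163 CPM against 39.3 to 63.0 CPM in the first part, and ended above its start. In the fourth part TOP2A was still at 96.0 and 115 CPM, while LEF1 lay within the interval of its first part, 68.3 to 91.7 CPM in straight and 62.9 to 77.8 CPM in curly skin. Towards the IRS it was at 78.1, 61.1, 50.8, 36.3 and 21.9 CPM in straight and 69.2, 60.0, 32.6, 36.6 and 19.03 CPM in curly skin. FZD10 stood at 23.0, 14.1, 26.0, 15.3 and 42.2 CPM towards the straight IRS end and at 15.6, 28.9, 23.3, 29.4 and 56.5 CPM towards the curly one, higher in the last part than in any other. In straight skin its interval in the last part (31.3 to 55.6) overlapped that of the third (20.2 to 32.8). At the hair shaft ends FZD10 was at 15.0 and 16.96 CPM. The log2 ratio of the hair shaft end over the IRS end was 2.57 (2.00 to 3.21) and 2.80 (2.49 to 3.12) for LEF1. For FZD10 it was −1.49 (−2.11 to −0.88) and −1.74 (−2.09 to −1.39), in straight and curly skin. The last parts are mostly the HS-like and IRS-like cells already compared, so these ratios largely restate that contrast of classes. For LEF1, HS-like over IRS-like cells gave log2 ratios of 2.51 and 2.77.

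The other 5 genes differed less between the ends. FZD6 was higher at the curly hair shaft end by 0.94 (0.53 to 1.36), and the straight value of 0.59 had an interval that held 0. CTNNB1 was higher there by 0.42 (0.31 to 0.52) in the curly library, whereas the straight value was −0.12 (−0.31 to 0.07). FZD1 gave −0.77 and −0.43 and LRP6 −0.39 and −0.33, each with an interval that held 0. FZD1 was highest in the second part of both ways in both libraries, from 30.45 to 32.99 CPM. Its interval there overlapped that of the third part each time. At most 1.84% of cells in these second parts were not matrix-like, so both ways draw on the same matrix-like cells there. TCF7L1 stayed between 1.70 and 6.51 CPM in every part. Of 3386 genes with at least 100 UMIs at the ends in both libraries, 6.26% were at least 2 times higher at the hair shaft end in both and 3.04% at least 2 times lower. CTNNB1 and LEF1 reached this minimum of UMIs, and LEF1 was past that fold, while FZD10 fell short of it with 44 and 50 UMIs at the straight ends.

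**Figure D3:**
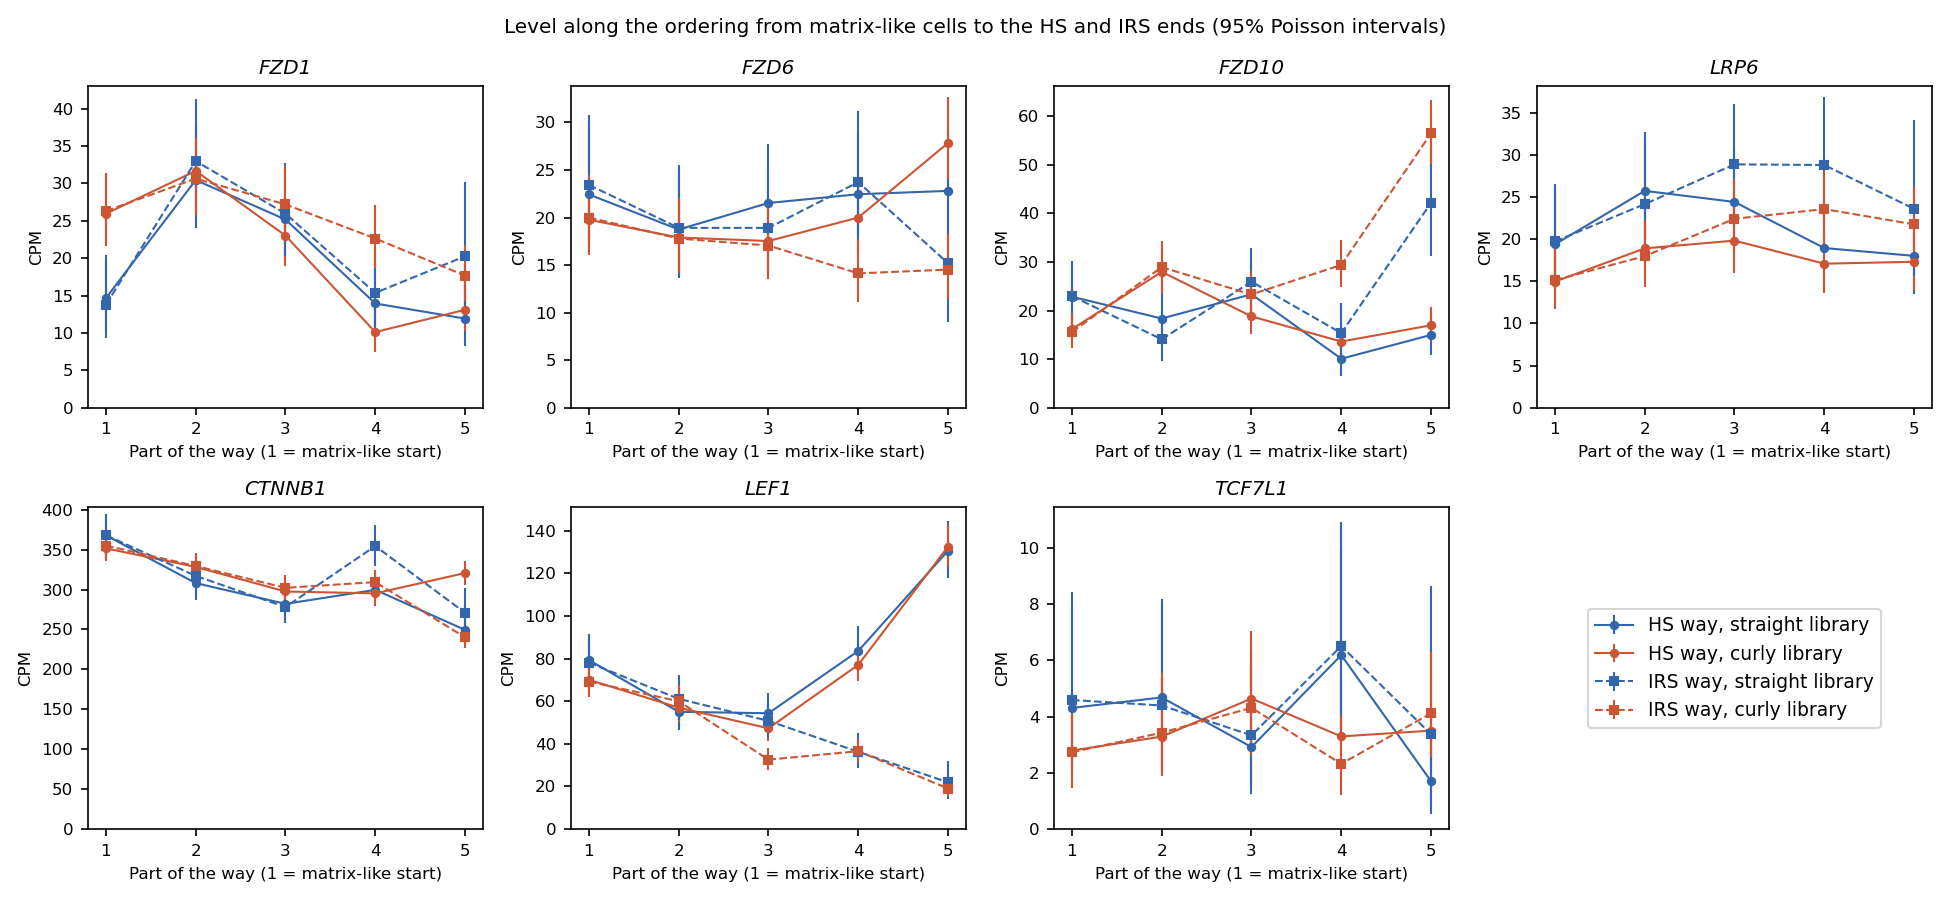
CPM of each gene (y axis, linear) in 5 successive parts (x axis, 1 being the matrix-like start) of the cells ordered towards the HS end (circles, full lines) and the IRS end (squares, broken lines), by library, with 95% Poisson intervals. LEF1 ends at 131 and 133 CPM on the HS way and at 21.9 and 19.03 CPM on the IRS way, and FZD10 shows the reverse order at the ends.

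The matrix-like cells mostly divided at resolution 0.8 into a mitotic cluster, with 284 and 259 CPM of TOP2A, a non-mitotic cluster, with 29.8 and 22.6 CPM, and a smaller one led by STC1. LEF1 was lower in the mitotic cluster, at 59.6 CPM (52.2 to 67.7) in straight and 52.2 CPM (47.1 to 57.8) in curly skin, than in a cluster with less TOP2A, at 75.4 CPM (65.8 to 86.2) and 70.4 CPM (64.3 to 77.0). In curly skin these intervals did not overlap, and in straight skin they overlapped slightly. The third cluster, which had the lowest TOP2A of the 3, at 12.99 and 8.01 CPM, was also lowest in LEF1, with 36.5 and 24.3 CPM, so LEF1 did not follow TOP2A over the 3 clusters. FZD10 was higher in the mitotic cluster in curly skin, at 25.8 CPM (22.3 to 29.8) against 16.4 CPM (13.5 to 19.7), with 22.7 and 18.7 CPM in straight skin. Between the libraries, none of 6 members was past 2-fold in the mitotic cluster (2.43% of all genes) and none of 6 in the non-mitotic one (2.96%), where FZD1 was 0.80 (0.32 to 1.31) higher on the log2 scale in curly skin. In the third cluster FZD6 was past it, 1 of 4 (2.93%), at 31.0 CPM from 62 UMIs in straight and 13.5 CPM from 44 UMIs in curly skin, a log2 ratio of −1.19 (−1.78 to −0.61). These clusters were examined after the values had been seen.

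Over all cells, no member of the group was past 2-fold between the libraries, beside 10.2% of 13196 genes with at least 100 UMIs. The log2 ratio of curly over straight was 0.21 (0.12 to 0.31) for LEF1, 0.16 (0.07 to 0.26) for FZD6 and 0.08 (−0.05 to 0.21) for FZD10. It was −0.06 (−0.09 to −0.02) for CTNNB1, −0.07 (−0.18 to 0.04) for FZD1, −0.20 (−0.30 to −0.09) for LRP6 and −0.21 (−0.35 to −0.06) for TCF7L1. The median of all 13196 genes was −0.18, so LEF1 and FZD6 stood above most genes, at the 85.2 and 82.7 percentile, and LRP6 and TCF7L1 at the middle, at the 48.6 and 47.6 percentile. Scaling by that median turned the sign of FZD1 and CTNNB1 to positive, and the mean over cells turned that of FZD10 to negative. These totals mix the cell classes, whose shares differ between the libraries.

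Within a class, the counts of genes past 2-fold were few. Classes are taken where at least 4 of the 7 had 100 UMIs. In matrix-like cells none of the 7 was past 2-fold, beside 2.80% of all genes tested there. None of 6 was past it in HS-like cells (3.59% of all genes), none of 6 in IRS-like cells (4.39%), none of 5 in HFSC-like cells (7.51%), none of 4 in KRT6A-rich cells (4.25%) and none of 4 in suprabasal IFE-like cells (9.53%). FZD10 was past it in DPC-like cells, 1 of 6 (7.89%), TCF7L1 in basal IFE-like cells, 1 of 4 (6.12%), and LRP6 in KRT79-rich cells, 1 of 4 (8.37%). All 3 were lower in the curly library, and LRP6 in KRT79-rich cells was no longer past 2-fold, at −0.92, when scaled by the median gene.

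**Figure D4:**
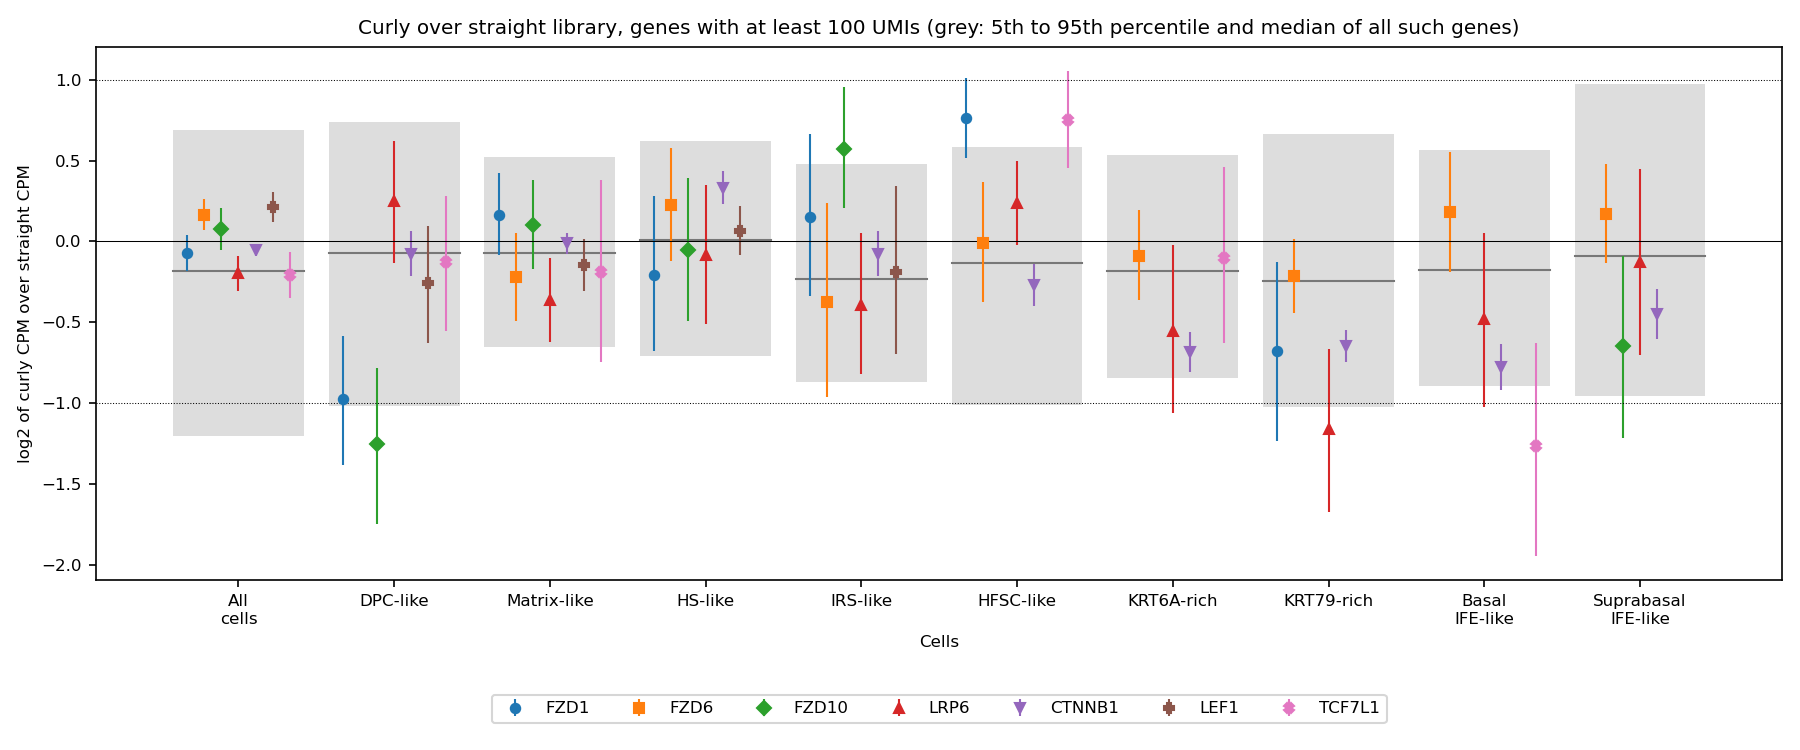
log2 of curly over straight CPM (y axis) for genes with at least 100 UMIs in all cells and in 9 classes (x axis), with 95% counting intervals. Grey boxes span the 5th to 95th percentile of all genes tested and the grey line is their median. FZD10 in DPC-like cells, TCF7L1 in basal IFE-like cells and LRP6 in KRT79-rich cells lie beyond the dotted line at −1, and the boxes hold most of the other points.

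In DPC-like cells FZD10 stood at 34.0 CPM (30.0 to 38.3) in straight and 14.3 CPM (10.4 to 19.2) in curly skin, a log2 ratio of −1.25 (−1.74 to −0.78). FZD1 stood at 40.8 CPM (36.5 to 45.5) and 20.8 CPM (16.03 to 26.6), a log2 ratio of −0.97 (−1.38 to −0.58). Of all 6906 genes tested in this class 3.16% had a ratio below that of FZD10 and 5.49% below that of FZD1. LRP6 at 0.25, CTNNB1 at −0.07, LEF1 at −0.26 and TCF7L1 at −0.13 had intervals that held 0. FZD4 and FZD7, other frizzleds, had 17.1 and 12.9 CPM in straight and 17.6 and 12.7 CPM in curly DPC-like cells.

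DPC-like cells fell into 2 clusters at resolution 0.8, and this split was examined after the values had been seen. One had high FGF7, a growth factor of the papilla, at 1082 CPM (straight) and 829 CPM (curly), and held 606 straight and 186 curly cells. The other had 151 and 71.5 CPM of FGF7 and held 631 straight and 464 curly cells. FGF7-high cells were thus more frequent in the straight library, and the mixture moves with the class levels. In FGF7-high cells FZD1 was at 53.5 CPM (47.3 to 60.4) in straight and 28.1 CPM (19.1 to 39.8) in curly skin, and FZD10 at 40.8 CPM (35.4 to 46.8) and 19.9 CPM (12.5 to 30.1). In FGF7-low cells FZD1 was at 19.5 and 17.1 CPM with overlapping intervals, and FZD10 at 22.3 CPM (17.2 to 28.4) and 10.9 CPM (6.74 to 16.6). FZD10 was lower in curly cells of each cluster, with log2 ratios of −1.04 (−1.74 to −0.40) and −1.03 (−1.82 to −0.30), and that in FZD1 was seen within the FGF7-high cells, at −0.93, and was −0.19 (−0.85 to 0.45) within the others. In FGF7-low cells FZD10 had 65 straight and 21 curly UMIs and FZD1 57 and 33, under the minimum of 100, so neither was counted there, where none of 4 members was past 2-fold (5.26% of all genes). LRP6 went opposite ways in the clusters, at −1.03 (−1.98 to −0.20) in FGF7-high and 0.70 (0.21 to 1.19) in FGF7-low cells. Its FGF7-high value rests on 119 straight and only 13 curly UMIs. LEF1 was also lower in curly FGF7-high cells, at −0.99 (−1.80 to −0.26) from 151 straight and 17 curly UMIs, and was −0.15 (−0.60 to 0.29) in FGF7-low cells. In FGF7-high cells FZD10 and LRP6 were past 2-fold, 2 of 6, beside 12.3% of all genes, and 9.03% of the 4818 genes tested there lay below FZD10. Curly DPC-like cells also had fewer UMIs, with a median of 4513 against 6085.

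**Figure D5:**
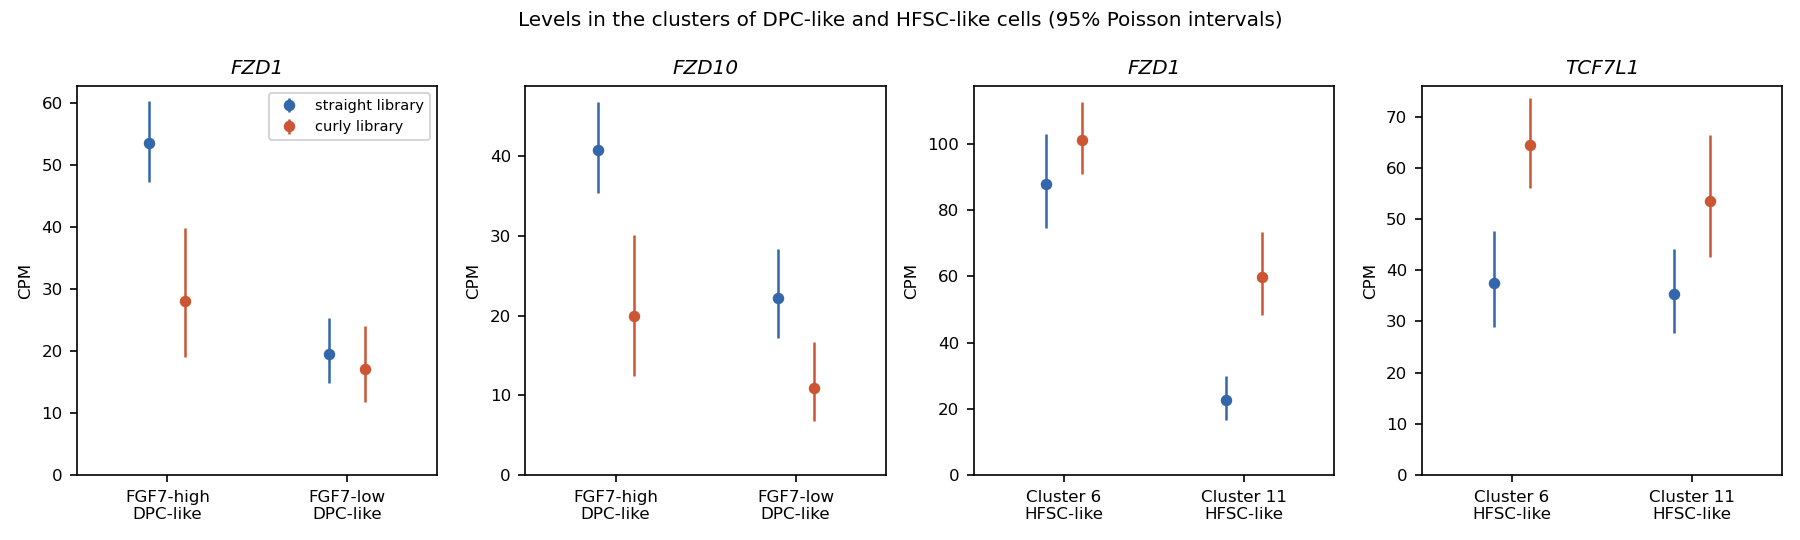
CPM (y axis, linear) of FZD1 and FZD10 in the FGF7-high and FGF7-low clusters of DPC-like cells and of FZD1 and TCF7L1 in clusters 6 and 11 of HFSC-like cells (x axis), in the straight (blue) and curly (orange) library with 95% Poisson intervals. FZD10 is lower in curly cells of both DPC-like clusters, FZD1 in the FGF7-high cluster, and FZD1 and TCF7L1 in cluster 11 are higher in curly cells.

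HFSC-like cells had more of FZD1 and TCF7L1 in the curly library, with log2 ratios of 0.76 (0.52 to 1.01) and 0.75 (0.46 to 1.05). Of the 6127 genes tested there, 96.6% and 96.5% had a lower ratio, although neither was past 2-fold. Cluster 6 contributed 316 of 551 straight and 584 of 790 curly cells. Within cluster 6 FZD1 was at 0.20 (−0.08 to 0.49) and TCF7L1 at 0.79 (0.38 to 1.21), and within cluster 11 they were at 1.41 (0.89 to 1.94) and 0.60 (0.13 to 1.07). TCF7L1 was thus higher in both, and FZD1 in cluster 11. These HFSC-like ratios depended on the processing: averaged over cells they were 0.26 for FZD1 and 0.24 for TCF7L1, and without integration 0.12 and −0.26. Without integration the cluster led by LCN2 and LGR5 was named luminal sweat gland-like and so lay outside the class. The class was then a cluster of 2144 straight and 251 curly cells led by PTHLH, so the values without integration compare other cells. In basal IFE-like cells of the integrated clusters TCF7L1 was lower in curly skin, from 17.6 CPM (14.1 to 21.6) in straight to 7.33 CPM (4.83 to 10.7), a log2 ratio of −1.26 (−1.94 to −0.63). It was −0.62 without integration, where the class was a cluster of 198 straight and 754 curly cells with high cycling markers. The difference between HFSC-like and basal IFE-like cells was not tested.

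CTNNB1 was lower in the curly library in 6 of 14 classes and higher in 2, by intervals that left out 0. Such intervals are narrow where UMIs are many, so its place among all genes tested is also given. The share of genes with a lower ratio was 7.25% in basal IFE-like, 9.55% in KRT6A-rich, 13.4% in cycling-like and 16.1% in KRT79-rich cells. It was 20.1% in suprabasal IFE-like, 37.3% in HFSC-like, 66.1% in contractile-like and 84.3% in HS-like cells. The log2 ratio was −0.78 (−0.92 to −0.63) in basal IFE-like, −0.68 in KRT6A-rich, −0.65 in KRT79-rich and −0.45 in suprabasal IFE-like cells, against class medians from −0.24 to −0.09 over all genes tested. It was −0.54 (−0.77 to −0.30) in cycling-like cells, and 0.21 for the class of that name at resolution 0.8. There the class also took in the mitotic cluster of matrix-like cells, with 241 straight and 398 curly cells. These values thus cover different cells. In HFSC-like cells the log2 ratio of CTNNB1 was −0.27 (−0.40 to −0.14), and −0.13 when scaled by the median gene. Without integration the values were −0.39 in basal IFE-like cells, a class then made up otherwise, and −0.36 in KRT6A-rich cells. Basal IFE-like cells had 264 CPM (250 to 278) in straight and 154 CPM (142 to 167) in curly skin with medians of 6833.5 and 6683.5 UMIs. In HS-like cells it was 0.33 (0.23 to 0.44), from 237 to 299 CPM, in contractile-like cells 0.22 (0.01 to 0.44), and in matrix-like cells −0.01 (−0.08 to 0.05). In KRT79-rich cells LRP6 was at 14.5 CPM (11.8 to 17.7) in straight and 6.50 CPM (4.86 to 8.53) in curly skin, a log2 ratio of −1.16 (−1.67 to −0.66). FZD10 in IRS-like cells was 0.57 (0.21 to 0.96) higher in curly skin, but lower, at −0.32, when CPM were averaged over cells.

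For each gene the most similar profiles over the 19 clusters with enough cells were sought among 8986 named genes with at least 500 UMIs, by the smaller of the correlations in the 2 libraries. LEF1 was closest to NOTUM, a secreted WNT inhibitor and known WNT target, with Pearson's r of 0.86 in straight and 0.89 in curly skin, then to TMEM150A and EMID1. FZD10 was closest to ORMDL1 (0.82 and 0.79), ROBO1 and NKD1, another target that inhibits the pathway (0.85 and 0.75). NKD1 was highest in IRS-like cells, as FZD10 was, at 35.3 and 32.4 CPM. TCF7L1 was closest to MATN2, PAM and its relative TCF7L2 (0.82 and 0.85), and FZD6 to PALMD, CRYBG1 and JUP (0.82 and 0.79), the junction protein plakoglobin, which is related to β-catenin. FZD1 came closest to GLI2, a factor of hedgehog signalling (0.70 and 0.71), ATP6V0A2 and LSM14A, LRP6 to LTBP3, VGLL4 and PCNX4, and CTNNB1 to CD24, DHDH and PATZ1. The clusters share a library and its depth, so these r values are descriptions.

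Beside these genes, a list of 54 genes of the pathway was counted, of which PYGO2 is not listed in the table and 51 had at least 100 UMIs. Of the 44 that are not among the 7, 7 were higher and 37 lower in the curly library over all cells, with a median log2 ratio of −0.26, and 2 were past 2-fold, FZD4 at −1.04 and TLE2, a co-repressor, at −1.08. Of all 13196 genes, 3976 were higher and 9220 lower, with a median of −0.18. Of the 7, 3 were higher and 4 lower, with a median of −0.06.

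Of the other frizzleds, FZD2 and FZD7 were highest in HFSC-like cells in both libraries, FZD7 at 157 CPM (straight) and 111 CPM (curly), like LRP6. FZD3 was highest in HFSC-like cells in straight and in KRT6A-rich cells in curly skin. FZD4, FZD8 and FZD9 had their highest values in endothelial-like cells on few UMIs. FZD4 had 23.0 CPM (15.5 to 32.8) and 18.5 CPM (10.6 to 30.1) there, which overlapped DPC-like cells in both libraries, FZD8 rested on 7 and 5 UMIs and FZD9 on 4 and 3. As a share of all frizzled UMIs, FZD10 rose from 11.3% in straight matrix-like to 22.3% in straight IRS-like cells, and from 12.95% to 34.7% in the curly library. FZD6 took 47.8% and 56.4% in suprabasal IFE-like cells and 2.55% and 6.47% in DPC-like cells, where FZD1 took 31.5% and 23.0%. AXIN2, a feedback target of the pathway, was highest in endothelial-like cells of the straight library at 13.8 CPM and in matrix-like cells of the curly library at 12.1 CPM, with 10.2 CPM in straight matrix-like cells. The straight endothelial-like value rests on few UMIs, so its place above matrix-like cells is not settled by counting.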

How the data were processed

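Per the submitters' processing notes the authors used Cell Ranger 3.0.2, and they deposited natural log values of 1 plus UMIs scaled to 10000 per cell. Whole UMI counts were recovered from these (100% of values within 0.01). Libraries were integrated in Seurat 5.3.0 (R 4.3.3) on 2000 variable genes and 30 dimensions, without the WNT list, and clustered at resolution 0.3. Markers named a cluster at a mean log2 excess of at least 1.5 with at least 3 markers detected, unless another list had more markers among its 10 leading genes. A shallow cluster with no marker of its best list among those 10 was left unnamed. Cycling markers gave a name only where no cell type did. Classes ordered had at least 25 cells and 200000 UMIs per library, limits chosen after the data were seen. Intervals are exact Poisson, Clopper-Pearson or, for ratios, from the binomial split of 2 sums. Pseudotime used scanpy 1.11.5 (30 neighbours, 10 components). Named genes are the 7, each frizzled and TCF family gene, LRP5, AXIN2 and the 3 most similar genes of each of the 7, and others were named after their values were seen. The 7 genes and the lists were chosen with earlier results of these data known. Doublets were kept, since a Scrublet threshold called under 1% of cells. The calculations were tested on simulated data.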

Additional observations from a re-analysis of the deposited data

How the results depend on the processing

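No paired analysis was possible because each wool type has 1 library, and for the same reason no replicate could be left out. Alternatives were another clustering resolution, no integration, a stricter filter on genes per cell, removal of the highest 6% of doublet scores, the mean of per-cell CPM, a denominator without the 50 most abundant genes, scaling by the median gene, a minimum of 20 UMIs, and for the ordering 20 components. Under the filter on genes per cell 3 genes had the same highest class in both libraries. Scaled by the median gene, the log2 ratios over all cells were 0.11 for FZD1, 0.35 for FZD6, 0.26 for FZD10, −0.012 for LRP6, 0.13 for CTNNB1, 0.40 for LEF1 and −0.022 for TCF7L1. By the mean over cells they were −0.070 for FZD10 and 0.37 for LEF1, and with the 50 most abundant genes out of the denominator −0.017 for CTNNB1. With a minimum of 20 UMIs the count of genes past 2-fold was 1 in cycling-like, 1 in immune-like and 1 in luminal sweat gland-like cells, and scaled by the median gene it was 0 in KRT79-rich cells. With 20 components the hair shaft end over the IRS end was 1.80 in straight and 2.35 in curly skin for LEF1, and −1.78 in curly skin for TCF7L1. By the mean over cells it was 3.498 and 2.43 for LEF1, −2.55 for FZD10 and −1.65 for FZD1 in straight skin, with the curly FZD1 and FZD10 values inside their intervals. The cause of these shifts was not tested. The 3 ratios past 2-fold within a class kept their sign under each alternative run. Without integration TCF7L1 turned to −0.26 in HFSC-like cells, a class then made up otherwise, and by the mean over cells FZD10 turned to −0.32 in IRS-like cells. Depth limits most class levels: TCF7L1 in IRS-like cells rests on 3 and 6 UMIs.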
